A study of Homo sapiens with 12 samples.

Results

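NF-kappaB is a family of transcription factors built from 5 related subunits, and the genes described here are those subunits (NFKB1, NFKB2, RELA, RELB and REL), the atypical inhibitor BCL3, the inhibitors NFKBIA and NFKBIE, and the feedback genes TNFAIP3 and BIRC3. These 10 genes were found by symbol among the 70116 gene identifiers of the count table, and all 10 were among the 16197 genes that passed the filter on low counts. The set was chosen by symbol with measured values in view, since BCL3 had one of the largest decreases after ACLY knockdown. The comparison of siACLY with siControl therefore served to choose the set, and its values for the 10 genes are given as a description without a test.

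The polyadenylated RNA came from MiaPaCa-2, an established cell line from a human pancreatic carcinoma. The labels of the 4 groups of 3 libraries name no difference between groups other than the small interfering RNA (siRNA). SiControl received a control siRNA, siSLC25A1 an siRNA against the mitochondrial citrate exporter, siACLY an siRNA against ATP citrate lyase, and siACO1 an siRNA against cytosolic aconitase. All groups share transfection and the same cell line, so each value compares transfected cells with transfected cells. The number of siRNAs per target, the time of harvest and the medium at harvest are not given in the sources used here, and nothing says that replicates were separate cultures, so p-values measure the spread between these libraries, which may be technical.

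Library totals lay between 24159424 and 43792811 counts, and levels below are CPM, counts scaled to the size of the library, after adjustment by trimmed mean of M values (TMM). The targeted transcripts were at 8.75% (SLC25A1), 7.24% (ACLY) and 3.72% (ACO1) of their siControl level in the groups named for them. Of 7 markers chosen for a pancreatic epithelial line 4 passed the filter (KRT8, KRT18, KRT19 and the mesenchymal gene VIM), with a summed level of 7230 to 7270 CPM in siControl, 6950 to 7350 in siSLC25A1, 8090 to 8740 in siACLY and 5540 to 6020 in siACO1. The epithelial genes KRT7, EPCAM and CDH1 were at or near 0 in every group. None of 8 lymphocyte markers passed, PTPRC, CD3E, CD3D, CD2 and MS4A1 had no count in any library, and the list summed to at most 0.621 CPM. Of the 6 myeloid markers 2 were tested and AIF1 was at 0. The list summed to 1.4 to 2.18 CPM in siControl, 2.09 to 2.65 in siSLC25A1, 2.36 to 2.81 in siACLY and 2.96 to 3.26 in siACO1. Of the tested markers, LYZ had means of 0.836, 1.78, 2.06 and 1.98 CPM in that order, and CD14 of 0.638, 0.412, 0.43 and 0.839. The count of LYZ is uncertain, because 34% of its exon bases overlap other genes. Of 8 fibroblast and endothelial markers COL1A2 alone passed the filter, and the list summed to 875 to 895 CPM in siControl and 1550 to 1590 CPM in siACO1. The keratins KRT8, KRT18 and KRT19 were lower in siACO1 (log2 fold changes of -0.83, -0.78 and -0.76) and COL1A2 was higher (0.83). The part of these shifts in the results for siACO1 was not tested. SiACO1 replicate 3 stood apart from its group. Its deviations from the group mean across genes correlated at -0.72 and -0.725 with those of replicates 1 and 2, which correlated with each other at 0.044. Deviations of 3 libraries from their own mean correlate at about -0.5 where none stands apart, and the pairs within the other groups lay between -0.626 and -0.357. Calls of members that changed without that library are therefore stated below. Unless stated otherwise, values include it.

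NF-kappaB dimers are held in the cytoplasm by inhibitors of kappaB such as the product of NFKBIA. Signals from tumour necrosis factor (TNF), interleukin-1 and Toll-like receptors activate a kinase complex that marks the inhibitor for degradation, and the freed dimers enter the nucleus and bind kappaB sites. In the non-canonical route the kinase encoded by MAP3K14 drives processing of the NFKB2 product p100 to p52, the partner of RELB. NFKBIA, NFKBIE, TNFAIP3, BIRC3, NFKB1, NFKB2, RELB, REL and BCL3 are themselves known targets of NF-kappaB, which makes their transcripts part of the feedback. BCL3 binds dimers of p50 or p52 in the nucleus and can turn them into activators or keep them on DNA as repressors.

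Because the members are known targets, their promoters were searched for kappaB sites, and the sequences are shown so that the matches can be read directly. RefSeq promoter windows (GRCh38.p14, 250 bases before to 50 after a start) were at hand for 8 of the 10 members, and RELB and NFKBIE had no window in the table used. Both strands were searched for the kappaB consensus, a motif of 10 bases, and for a narrower form within it, GGGA, then any base, then TTTCC. The consensus was found in at least 1 window of 7 of the 8 members, against 13.3% of the 27305 genes with a window. The narrower form was found for 5 of the 8 (NFKB1, NFKB2, REL, NFKBIA and TNFAIP3), against 0.678% of genes. RELA was the member with no match in either of its 2 windows. Counted by windows, 8 of 12 member windows held the consensus and 11.3% of 35116 windows did. Most members were already known targets when the set was chosen, so these shares describe the set and were not tested against all genes. A match describes the letters of the window and is not evidence of binding. In the following 30-base stretches, written 5′ to 3′ on the gene's strand, the 10 bases in capitals are the match, on either strand.
BCL3 (chr19:44748700-44748729, plus strand, consensus alone, match starting 3 bases into the transcript): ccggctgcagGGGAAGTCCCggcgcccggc
NFKB1 (chr4:102501300-102501329, plus strand, match starting 49 bases before the start): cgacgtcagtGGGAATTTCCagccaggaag
NFKB2 (chr10:102395674-102395703, plus strand, 21 bases before the third of its 3 starts): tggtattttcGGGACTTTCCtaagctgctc
REL (chr2:60881518-60881547, plus strand, 46 bases before): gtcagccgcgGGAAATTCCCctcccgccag
NFKBIA (chr14:35404811-35404840, minus strand, 81 bases before): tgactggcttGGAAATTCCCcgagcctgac
TNFAIP3 (chr6:137867182-137867211, plus strand, 67 bases before): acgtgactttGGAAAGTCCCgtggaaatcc
BIRC3 (chr11:102317275-102317304, plus strand, consensus alone, 199 bases before): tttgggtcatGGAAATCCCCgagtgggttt

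**Figure D1:**
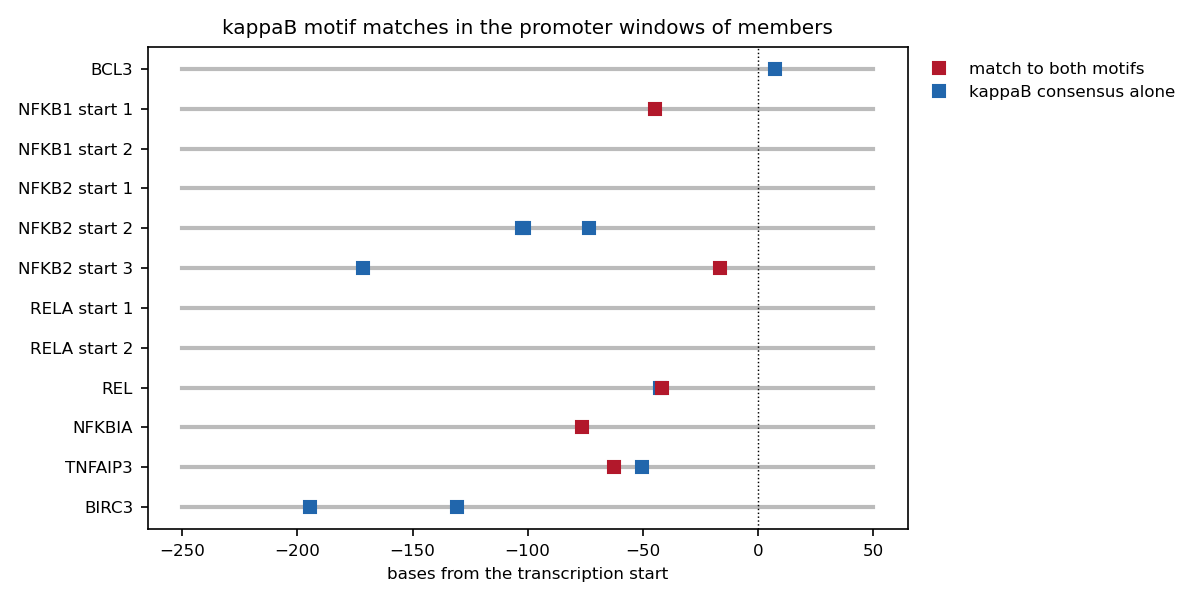
Each grey line is a promoter window of a member from 250 bases before to 50 bases after a transcription start (dotted line), and squares mark matches to the kappaB consensus on either strand, red where the narrower form also matches and blue otherwise. Matches lie in 8 of the 12 windows, upstream of the start in every gene shown except BCL3.

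Per kilobase of exon, the control cells held most RELA among the 10 transcripts (16.1 ± 0.53 CPM per kb, SD, n = 3), followed by NFKBIA (14.4 ± 0.849), NFKB1 (10.5 ± 0.887) and NFKB2 (7.87 ± 0.115). The ranges of RELA (15.5 to 16.5) and NFKBIA (13.6 to 15.3) did not overlap, nor did those of any other neighbours in this order. BIRC3 (4.37 ± 0.18), BCL3 (3.66 ± 0.0933), RELB (2.78 ± 0.36) and NFKBIE (1.96 ± 0.303) came next. REL (0.66 ± 0.0104) and TNFAIP3 (0.302 ± 0.0537) had the lowest levels per kilobase. The level of REL is uncertain, because 43.3% of its exon bases overlap another annotated gene. The ranges show the spread between libraries only, whereas this order also depends on the exon lengths used (5.46 kb for RELA, 2.37 kb for NFKBIA). In siControl CPM without lengths, NFKBIA (34.2) stood below NFKB1 (65.4) and NFKB2 (35.3), and REL (8.7) above RELB (8.45) and NFKBIE (5.07). TNFAIP3 rests on 13 to 61 reads per library and has the widest errors of the set.

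The subunits were examined first. In siACO1, 4 of the 5 subunit transcripts fell against siControl, NFKB2 and RELB most, while RELA did not pass the test, where 37.1% of all tested genes were called and 19.3% were lower. Of the 4, REL was not called without siACO1 replicate 3 (adjusted p 0.15). In siSLC25A1 none of the 5 passed, where 19.6% of all tested genes did. Fewer cells with a transcript and less of it per cell cannot be told apart in these bulk libraries.

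NFKB2 (ENSG00000077150.21; chromosome 10, 102394110 to 102402529, plus strand, GENCODE 29 on GRCh38) encodes p100, the precursor of p52. Its level was 34.7, 35.8 and 35.4 CPM in siControl, 31.5, 35.8 and 36.1 in siSLC25A1, 34.8, 36.3 and 37.1 in siACLY, and 24, 23.5 and 25 in siACO1. The siACO1 libraries lay below all 9 others, which overlapped one another. The log2 fold change of siACO1 against siControl was -0.55 (SE 0.06, adjusted p 3.25e-08, edgeR's quasi-likelihood test with Benjamini-Hochberg adjustment, used for all adjusted p-values here), so that 68.4% of the control level remained. NFKB2 was also higher in siSLC25A1 than in siACO1 by 0.51 (adjusted p 1.09e-07) and in siACLY than in siACO1 by 0.58 (adjusted p 9.37e-09).

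RELB (ENSG00000104856.15; chromosome 19, 45001430 to 45038198, plus strand) encodes the main partner of p52. It was at 8.43, 9.55 and 7.36 CPM in siControl, at 6.73, 8.73 and 9.95 in siSLC25A1, at 8.77, 7.72 and 8.56 in siACLY, and at 4.67, 5.27 and 4.56 in siACO1. As with NFKB2, the 3 siACO1 libraries were below every other library. The decrease in siACO1 against siControl was -0.81 on the log2 scale (SE 0.13, adjusted p 1.26e-05), to 57.2% of control. In siSLC25A1 the difference from siControl was -0.01, with a 95% interval from -0.26 to 0.24.

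NFKB1 (ENSG00000109320.14; chromosome 4, 102501329 to 102617302, plus strand) encodes p105, the precursor of p50. Its level was 61.6, 62.9 and 71.8 CPM in siControl and 53.4, 56.7 and 54.8 in siACO1, without overlap, and the log2 fold change was -0.25 (SE 0.07, adjusted p 0.00431). The other groups ran from 58.6 to 70 CPM (siSLC25A1) and from 65.4 to 75.1 CPM (siACLY), both overlapping siControl. The siSLC25A1 difference was 0.00 (95% interval -0.14 to 0.13).

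RELA (ENSG00000173039.20; chromosome 11, 65653596 to 65663094, minus strand) encodes p65, the activating subunit of the classical p50 and p65 dimer. It was at 88.6, 84.6 and 90.3 CPM in siControl, 91.8, 90.7 and 91.9 in siSLC25A1, 82.5, 85.6 and 88.2 in siACLY, and 82.9, 81.3 and 85.5 in siACO1. Group means stayed within 94.8% to 104% of control. The difference from siControl was 0.06 in siSLC25A1 (95% interval -0.03 to 0.15, adjusted p 0.391) and -0.08 in siACO1 (-0.17 to 0.01, adjusted p 0.184). RELA was higher in siSLC25A1 than in siACO1 by 0.14 (SE 0.04, adjusted p 0.0149). The call did not hold with library totals in place of TMM (0.09, adjusted p 0.0899), with every gene kept (0.13) or with siACO1 replicate 2 left out (0.12).

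REL (ENSG00000162924.16; chromosome 2, 60881521 to 60931610, plus strand) encodes c-Rel, best known from lymphocytes. It was at 8.54, 8.8 and 8.76 CPM in siControl, 8.16, 9.06 and 7.63 in siSLC25A1, 6.63, 7.22 and 7.4 in siACLY, and 7.53, 7.54 and 4.43 in siACO1. The low value of siACO1 replicate 3 set the size of the decrease in that group. The log2 fold change was -0.43 (SE 0.14, adjusted p 0.0145), but -0.21 without that library (adjusted p 0.15), and the call was also lost when only siACO1 and siControl were fitted (adjusted p 0.0556). The count of REL is uncertain in any case, because 43.3% of its exon bases overlap another annotated gene and the strand setting of the counting is not given.

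**Figure D2:**
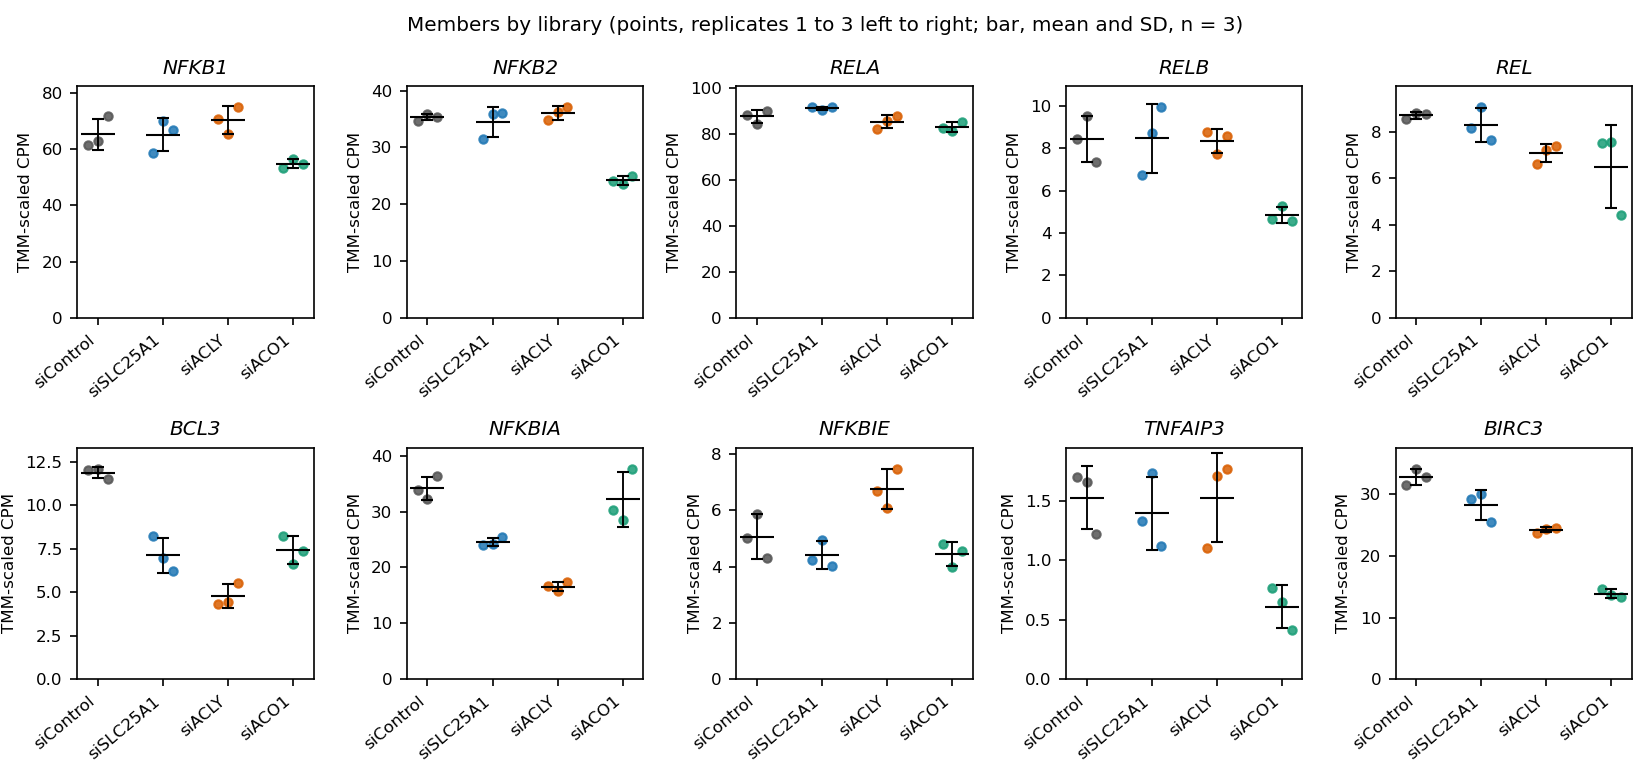
TMM-scaled CPM (vertical axes, from 0) of the 10 genes in each of the 12 libraries (points), with the mean and SD of each group (bars, n = 3). NFKB2, RELB, TNFAIP3 and BIRC3 are lowest in siACO1, whereas BCL3 and NFKBIA are lowest in siACLY, and REL shows siACO1 replicate 3 at 4.43 CPM below its group.

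Among the inhibitors, BCL3 was lower in siSLC25A1 and siACO1 than in siControl, whose values entered its choice. NFKBIA fell in siSLC25A1, and NFKBIE passed the test in neither siSLC25A1 nor siACO1.

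BCL3 (ENSG00000069399.15; chromosome 19, 44747705 to 44760044, plus strand) was at 12, 12.1 and 11.5 CPM in siControl. It was at 4.34, 4.42 and 5.55 CPM in siACLY, the values for which it was chosen, or 40.2% of control with a log2 fold change of -1.33 (SE 0.12). In siSLC25A1 its level was 8.2, 6.96 and 6.22 CPM and in siACO1 8.25, 6.63 and 7.35 CPM. The siSLC25A1 and siACO1 libraries overlapped each other and lay between the siControl and siACLY libraries without touching either. The decrease against siControl was -0.73 in siSLC25A1 (SE 0.11, adjusted p 1.9e-05, 60% of control) and -0.69 in siACO1 (SE 0.11, adjusted p 1.35e-05, 62.4% of control). Both comparisons use the control libraries that also entered the choice of BCL3, and their p-values make no allowance for that choice. Between siSLC25A1 and siACO1, which share no library with that choice, the difference was -0.04 (95% interval -0.29 to 0.20, adjusted p 0.801). Group means ran, from high to low, siControl (11.9 ± 0.302 CPM), siACO1 (7.41 ± 0.811), siSLC25A1 (7.13 ± 0.999) and siACLY (4.77 ± 0.678). The low level in siACLY entered the choice of BCL3, so its place in this order is a description and was not tested.

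NFKBIA (ENSG00000100906.12; chromosome 14, 35401511 to 35404749, minus strand) encodes IkappaB-alpha, the inhibitor that NF-kappaB itself induces to end a response. Its level was 33.9, 32.3 and 36.3 CPM in siControl, 24, 24.2 and 25.4 in siSLC25A1, 16.6, 15.7 and 17.4 in siACLY, and 30.3, 28.5 and 37.7 in siACO1. The siControl and siACO1 libraries overlapped, all siSLC25A1 libraries were lower than these, and the siACLY libraries were lower again. The decrease in siSLC25A1 was -0.48 on the log2 scale (SE 0.08, adjusted p 6.17e-05, 71.8% of control). In siACLY it stood at 48.5% of control. The knockdowns differed from each other, with siACLY below siSLC25A1 by 0.57 (SE 0.08, adjusted p 6.76e-06), siACLY below siACO1 by 0.96 (adjusted p 2.39e-10) and siSLC25A1 below siACO1 by 0.39 (adjusted p 0.000244). The difference of siACO1 from siControl was -0.08 (95% interval -0.24 to 0.07, adjusted p 0.424) and became -0.22 (adjusted p 0.00912) without siACO1 replicate 3, the library with the highest level of NFKBIA in its group.

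NFKBIE (ENSG00000146232.17; chromosome 6, 44258166 to 44265788, minus strand) encodes IkappaB-epsilon, a slower feedback inhibitor. It was at 5, 5.88 and 4.32 CPM in siControl, 4.25, 4.95 and 4.02 in siSLC25A1, 6.7, 6.09 and 7.48 in siACLY, and 4.79, 3.97 and 4.56 in siACO1. The siACLY libraries were above all others, opposite in direction to NFKBIA. Against the other knockdowns NFKBIE was higher in siACLY by 0.62 (siSLC25A1, SE 0.14, adjusted p 0.000775) and by 0.61 (siACO1, SE 0.14, adjusted p 0.00051). Its differences from siControl of -0.21 in siSLC25A1 and -0.20 in siACO1 did not pass (adjusted p 0.327 and 0.265).

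The feedback genes had their lowest levels in siACO1. BIRC3 (ENSG00000023445.17; chromosome 11, 102317450 to 102339403, plus strand) encodes cIAP2, a ubiquitin ligase that restrains the non-canonical kinase and protects from TNF-induced death. It was at 31.5, 34.2 and 32.8 CPM in siControl, 29.2, 30.1 and 25.5 in siSLC25A1, 23.8, 24.4 and 24.6 in siACLY, and 14.7, 13.7 and 13.3 in siACO1. Every siACO1 library was below every other library, and siSLC25A1 and siACLY lay between siACO1 and siControl. The decrease in siACO1 was -1.24 (SE 0.07, adjusted p 3.66e-14), to 42.3% of control. That in siSLC25A1 was -0.22 (SE 0.07, adjusted p 0.0207) and was not called without siControl replicate 2 (-0.18), siControl replicate 3 (-0.22) or siSLC25A1 replicate 3 (-0.15). BIRC3 was lower in siACO1 than in siSLC25A1 by 1.03 (adjusted p 2.08e-12) and than in siACLY by 0.81 (adjusted p 3.39e-10).

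TNFAIP3 (ENSG00000118503.18; chromosome 6, 137867188 to 137883312, plus strand) encodes A20, a ubiquitin-editing enzyme that shuts off signalling to the kinase complex. Its level was 1.7, 1.66 and 1.22 CPM in siControl, 1.33, 1.73 and 1.12 in siSLC25A1, 1.1, 1.71 and 1.77 in siACLY, and 0.765, 0.65 and 0.417 in siACO1. The siACO1 libraries were below all others and the other groups overlapped. The log2 fold change in siACO1 was -1.35 (SE 0.29, adjusted p 0.000464), and at 13 to 61 reads per library its 95% interval ran from -1.94 to -0.75. In siSLC25A1 the 95% interval of the difference ran from -0.68 to 0.39, so differences within that range are compatible with these libraries.

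**Figure D3:**
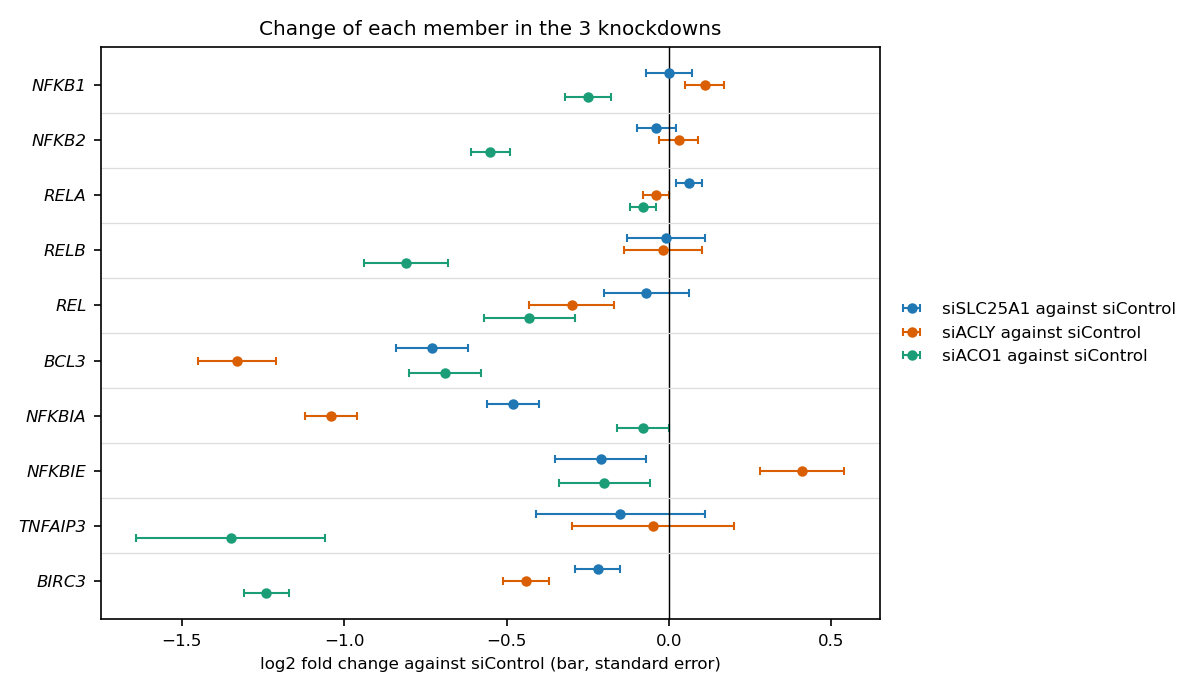
Log2 fold change of each gene against siControl (points) with its standard error (bars) for the 3 knockdowns, which share the same 3 control libraries. NFKB2, RELB, TNFAIP3 and BIRC3 are furthest left in siACO1 (-0.55 to -1.35), and BCL3 and NFKBIA are furthest left in siACLY (-1.33 and -1.04).

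Counted over the set, 3 of the 10 genes fell in siSLC25A1 (BCL3, NFKBIA and BIRC3) and none rose, where 19.6% of all tested genes were called, 10.3% higher and 9.27% lower. Without BCL3, whose siControl values entered the choice of the set, this was 2 of 9, or 22.2%, a share near that of all genes. In siACO1 7 of the 10 fell and none rose, where 37.1% of all tested genes were called, 17.8% higher and 19.3% lower. Without BCL3 6 of 9 fell. The median log2 fold change of these 9 genes was -0.07 in siSLC25A1 and -0.43 in siACO1, beside -0.004 and 0.006 over all tested genes.

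In comparisons between knockdowns the control values do not enter the difference itself, although all 12 libraries share the filter, scaling and estimate of spread. Between siSLC25A1 and siACO1, 8 of the 10 genes differed, 7 of them higher in siSLC25A1 (NFKB1, NFKB2, RELA, RELB, REL, TNFAIP3 and BIRC3) and NFKBIA lower, where 42.1% of all tested genes differed, 21.8% higher and 20.3% lower. The call of REL there (0.36, adjusted p 0.0425) was lost without siACO1 replicate 3 (0.14, adjusted p 0.364) and also when any siControl library was omitted (adjusted p 0.0512 to 0.0531), among other alternatives given at the end. Between siACLY and siACO1, 7 of the 9 genes other than BCL3 differed, 6 of them higher in siACLY and NFKBIA lower, where again 42.1% of all genes differed. Between siSLC25A1 and siACLY, 3 of those 9 differed (NFKBIA and BIRC3 higher in siSLC25A1, NFKBIE lower), where 33.8% of all genes did. BIRC3 in that comparison was higher by 0.22 (adjusted p 0.0121) and was not called without siSLC25A1 replicate 1 (0.20) or 2 (0.18).

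The genes upstream of NF-kappaB were examined by list. The lists here and below were chosen with earlier results of these data known. Their shares called are therefore set beside those of all genes as a description, without a test of the list. Of 16 receptor genes 13 were tested. In siSLC25A1 4 of them rose and 1 fell (38.5% called, against 19.6% of all genes), and in siACO1 2 rose and 4 fell (46.2% against 37.1%). TLR5, the flagellin receptor, rose from 2.55 ± 0.564 to 4.09 ± 0.205 CPM in siSLC25A1 (log2 fold change 0.68, adjusted p 0.00617) and fell to 1.32 ± 0.216 CPM in siACO1 (-0.95, adjusted p 0.000444). The 2 knockdowns differed by 1.64 (adjusted p 9.49e-08). TNFRSF12A, the TWEAK receptor, had the same order at a far higher level, with 122 ± 7.87 CPM in siControl, 150 ± 4.67 in siSLC25A1 (0.30) and 84.4 ± 1.9 in siACO1 (-0.53). TNFRSF21 fell in siACO1 (-0.87), and TLR6 (0.42) and TLR1 (0.78, from 1.1 CPM) rose in siSLC25A1. TLR1 lost its call when any of siControl replicates 2 and 3 and siSLC25A1 replicates 1 and 3 was omitted (0.67 to 0.81), and TLR5 in siSLC25A1 when siControl replicate 2 was (0.52). In siACLY 2 receptors were higher and 2 lower past the threshold (30.8%, against 36.7% of all genes), with log2 fold changes of 0.67 for IL1RAP, 0.31 for CD40 and -0.29 for IL1R1.

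Of 26 kinases and adaptors 25 were tested, of which 6 rose and 1 fell in siSLC25A1 (28% called, against 19.6% of all genes), and 2 rose and 8 fell in siACO1 (40%, near the 37.1% of all genes). BIRC2, which encodes cIAP1, the close relative of the BIRC3 product, went from 149 ± 2.9 CPM in siControl to 194 ± 7.91 in siSLC25A1 (0.38, adjusted p 4.87e-08) and 113 ± 2.36 in siACO1 (-0.41, adjusted p 6.32e-09). BIRC3 was lower in both groups, so the 2 genes moved apart in siSLC25A1 and together in siACO1. The siSLC25A1 call of BIRC3 was lost when certain single libraries were left out, as given above. CARD10, a scaffold of the BCL10 and MALT1 complex, moved the same way as BIRC2, by 0.32 in siSLC25A1 and by -0.86 in siACO1. TAB3 rose in siSLC25A1 (0.31), and TRAF5, an adaptor of TNF receptors, rose in siACO1 (0.48). The median of the list was -0.02 in siSLC25A1 and -0.03 in siACO1. In siACLY 2 were higher and 7 lower past the threshold (36% against 36.7%), with values of 0.59 for TRAF5, 0.40 for BCL10 and -0.49 for CARD10.

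Of 6 other genes listed with the inhibitors of kappaB, not all of them members of that protein family, 4 were tested. NKIRAS2 was the 1 that passed, higher in siSLC25A1 (0.15) and in siACO1 (0.24). This was 25% of the list in each, against 19.6% and 37.1% of all genes. The siSLC25A1 call of NKIRAS2 (adjusted p 0.0424) did not hold with every gene kept, nor with siControl replicate 2 or 3, any siSLC25A1 library or siACO1 replicate 1 omitted (0.13 to 0.15). In siACLY 2 of the 4 were lower past the threshold (50% against 36.7%), NFKBID at 3.58 ± 0.514 CPM against 5.83 ± 0.867 (-0.68) and NKIRAS2 (-0.23). NFKBIB, the gene of IkappaB-beta, is listed at 0 in all 12 libraries. As it is a gene of most cell types, a 0 in this table was not read as absence.

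Of 15 other brakes on the pathway 13 were tested. In siSLC25A1 2 rose, CYLD (0.40) and RNF11 (0.13), and in siACO1 3 rose and 3 fell. These were 15.4% and 46.2% of the list, against 19.6% and 37.1% of all genes. CYLD, a deubiquitinase that acts on BCL3 and on signalling adaptors, was at 34.8 ± 1.93 CPM in siControl, 46.1 ± 4.02 in siSLC25A1 (adjusted p 1.99e-05), 43.2 ± 1.84 in siACLY and 25.5 ± 0.728 in siACO1 (-0.45, adjusted p 2.31e-06). TAX1BP1, an adaptor of A20, fell in siACO1 (-0.36) and USP21 rose (0.38). RNF11 in siSLC25A1 lost its call with every gene kept (0.12) and with any siControl library, siSLC25A1 replicate 2 or siSLC25A1 replicate 3 omitted (0.11 to 0.14). In siACLY 4 of the 13 were higher and 3 lower past the threshold (53.8% against 36.7%), with values of -0.54 for ZC3H12A, 0.31 for CYLD and -0.24 for PDLIM2.

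**Figure D4:**
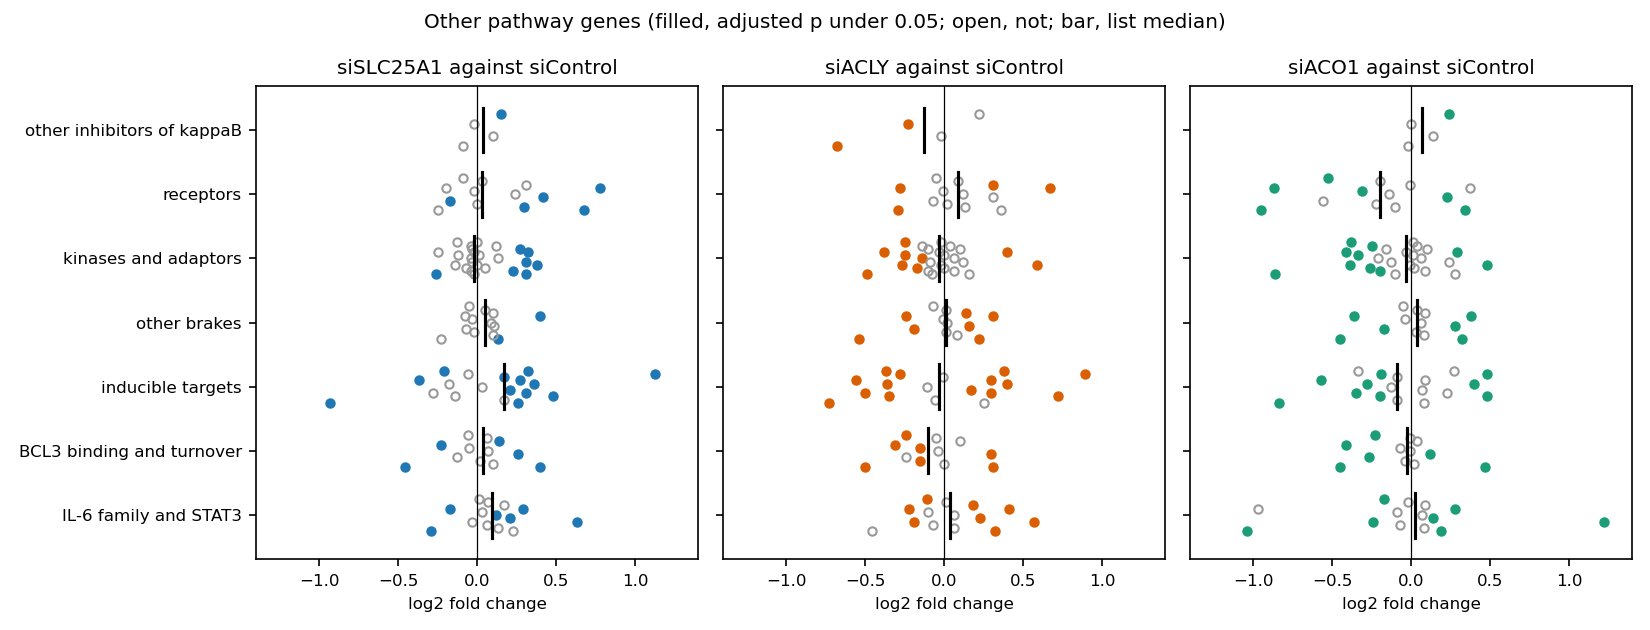
Log2 fold change against siControl (horizontal axes) of the tested genes of 7 lists in the 3 knockdowns, filled where the adjusted p was under 0.05 and open otherwise, with the list median as a bar. Points lie on both sides of 0 in every list, and the medians lie between -0.20 and 0.17.

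Of 34 inducible targets 18 were tested. The other 16 had too few counts, and 8 of them (CCL5, CCL20, IL6, TNF, LTB, CSF2, VCAM1 and IER3) are listed at 0 in all libraries. As for NFKBIB above, these zeros were not read as absence. In siSLC25A1 9 of the 18 rose and 3 fell (66.7% called, against 19.6% of all genes), and in siACO1 3 rose and 6 fell (50% against 37.1%). CXCL8, the neutrophil chemokine interleukin-8, was at 108 ± 5.41 CPM in siControl, 237 ± 1.98 in siSLC25A1, 200 ± 4.32 in siACLY and 113 ± 1.97 in siACO1. Its rise in siSLC25A1 was 1.13 (SE 0.04, adjusted p 3.7e-18), and siSLC25A1 and siACO1 differed by 1.06 (adjusted p 4.31e-18). IRF1 fell in siSLC25A1 (-0.93, SE 0.16, adjusted p 8.52e-05), from 4.8 ± 0.898 to 2.51 ± 0.0551 CPM, so listed targets moved in opposite directions in the same libraries. LIF, a cytokine of the interleukin-6 family, was at 48 ± 3.54 CPM in siControl, 61.6 ± 7.4 in siSLC25A1, 79 ± 3.71 in siACLY and 26.9 ± 1.25 in siACO1, where it fell by 0.84 on the log2 scale (adjusted p 7.28e-09). TNFAIP8 fell in siACO1 (-0.57) and BCL2L1, which encodes the survival protein BCL-XL, rose in siSLC25A1 (0.48). CXCL3 rose in siACO1 by 0.48 (adjusted p 0.0395), a call lost under DESeq2 (adjusted p 0.0546), with only these 2 groups, and with any of siControl replicates 2 and 3 and siACO1 replicates 1 and 3 omitted (0.36 to 0.49). The counts of IRF1 and BCL2L1 are uncertain because 22% and 43% of their exon bases overlap other genes. In siACLY 7 of the 18 were higher and 7 lower past the threshold (77.8% against 36.7%), with values of 0.89 for CXCL8, 0.72 for LIF and -0.73 for IRF1.

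All 12 genes linked to BCL3 binding or turnover were tested, with 3 higher and 2 lower in siSLC25A1 (41.7% called, against 19.6% of all genes), and 2 higher and 4 lower in siACO1 (50% against 37.1%). PIR, which encodes the BCL3-binding protein pirin, went from 10.4 ± 0.339 CPM in siControl to 7.59 ± 1.18 in siSLC25A1 (-0.46, adjusted p 0.00381) and 14.5 ± 1.65 in siACO1 (0.47, adjusted p 0.000524), although BCL3 fell in both. BARD1 rose in siSLC25A1 (0.26), a call that needed siControl replicate 2 and siSLC25A1 replicates 1 and 2 (0.21 to 0.24 when 1 of them was omitted). KAT5 fell in siACO1 (-0.41), with 38.6% of its exon bases shared with other genes. CCND1, the cyclin D1 gene that BCL3 with p52 can activate, was at 320 ± 6.41 CPM in siControl, 308 ± 7.13 in siSLC25A1, 226 ± 4.24 in siACLY and 318 ± 12.3 in siACO1. It differed from siControl by -0.05 in siSLC25A1 (adjusted p 0.373) and by -0.01 in siACO1 (adjusted p 0.934), and was lower in siACLY than in siACO1 by 0.49 (adjusted p 2.83e-11). In siACLY 2 of the 12 were higher and 5 lower past the threshold (58.3% against 36.7%), with values of -0.50 for CCND1, 0.31 for CYLD, which is in both lists, and -0.31 for HDAC1.

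Because BCL3 is also a target of STAT3, 14 genes of interleukin-6 signalling were examined, and all were tested. In siSLC25A1 4 rose and 2 fell (42.9% called, against 19.6% of all genes), and in siACO1 4 rose and 3 fell (50% against 37.1%). The receptor gene IL6R was at 2.99 ± 0.317 CPM in siControl, 4.63 ± 0.503 in siSLC25A1 (0.63, adjusted p 0.00806), 4.43 ± 0.111 in siACLY and 1.46 ± 0.49 in siACO1 (-1.04, adjusted p 0.000104). Its call in siSLC25A1 was lost without siControl replicate 1 (0.54) and, at an adjusted p of 0.05, without siSLC25A1 replicate 2 (0.56). JUNB rose in siACO1 by 1.22 (adjusted p 1.72e-11) and PIAS3, an inhibitor of STAT3, by 0.28. SOCS3, the feedback inhibitor of the receptor, fell in siSLC25A1 (-0.29, adjusted p 0.0368), which was lost when siControl replicate 1, siControl replicate 2 or siSLC25A1 replicate 3 was omitted (-0.16 to -0.26), and JAK1 rose there (0.29). In siACLY 5 of the 14 were higher and 3 lower past the threshold (57.1% against 36.7%), with values of 0.57 for IL6R, 0.41 for JAK2 and 0.32 for JUNB.

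The genes most like BCL3 over the 12 libraries were taken from the 9967 others with a mean of at least 5 CPM, by Pearson's r of log2 CPM. They were UBTF (0.962), ARMC7 (0.961), ZBTB46 (0.959), RHBDL1 (0.956) and SAC3D1 (0.948). UBTF, which encodes a transcription factor of ribosomal RNA genes, was at 172 ± 1.24 CPM in siControl, 136 ± 5.48 in siSLC25A1, 112 ± 1.36 in siACLY and 142 ± 5.74 in siACO1. ZBTB46 was at 8.17 ± 0.639, 6.43 ± 0.591, 4.81 ± 0.374 and 6.19 ± 0.216 CPM in the same order. Their likeness to BCL3 is fixed by the choice, and the libraries fall into 4 groups, so r mostly reflects the differences between group means.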

How the data were processed

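The authors deposited 1 table of raw counts per gene for the 12 libraries, 1 column each, per the file headers, and the columns were assigned through the labels. The submitters' processing notes name STAR 2.7.0e and the builds GRCm39 and GRCh38. The identifiers are human. The counting tool, annotation and strand setting are not given in the sources used here. Symbols matched 62700 of 70116 identifiers. EdgeR 4.0.16 (R 4.3.3) with filterByExpr defaults kept 16197 genes. All 12 libraries and 4 groups were fitted together (TMM scaling, robust quasi-likelihood, no block, 8 residual degrees of freedom), with two-sided tests adjusted by Benjamini-Hochberg over all tested genes and a threshold of 0.05. The fit was tested on simulated data. Exon lengths, places and overlaps (uncertain at 20% or more of exon bases, or of 31-base stretches found elsewhere) came from GENCODE 29. For likeness 0.5 was added to CPM before taking log2.

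The 10 members and all lists (other inhibitors, receptors, kinases and adaptors, other brakes, inducible targets, BCL3 binding and turnover, interleukin-6 family and STAT3, and cell markers) were chosen with earlier results of these data known. The text names the members, from each list and knockdown up to 3 called genes of largest change whose higher mean reached 1 CPM, and the 5 genes most like BCL3. Values of these genes in further comparisons, genes listed at 0 and cell markers fall outside this rule and were named after their values were seen. The alternatives tried were DESeq2 1.42.0, its size factors within edgeR, unscaled library totals, other filters, pairwise fits, a replicate block and leaving out each library.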

Additional observations from a re-analysis of the deposited data

How the results depend on the processing

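The number of members called in the comparisons without siACLY stayed within 1.5 times its value under every alternative tried. Leaving out 1 library gave 2 to 3 of 10 in siSLC25A1 and 7 in siACO1 against siControl. It gave 7 to 8 for siSLC25A1 against siACO1. The other alternatives gave 6 to 7 in siACO1 and 6 to 8 for siSLC25A1 against siACO1. The 7 in siACO1 are not the same genes throughout, since without siACO1 replicate 3 REL was not called and NFKBIA was. Differences that changed sign were small and not called. RELB in siSLC25A1 against siACLY (0.01) was -0.03 with library totals, -0.01 with at least 10 counts in every library and 0.00 with the replicate block, and -0.12 to 0.16 with 1 library left out. NFKB1 in siSLC25A1 was 0.00 with library totals and -0.06 to 0.07 with 1 library left out. With 1 library left out, NFKB2 (-0.07 to 0.03) and RELB (-0.14 to 0.14) in siSLC25A1, NFKB2 (-0.09 to 0.00) and TNFAIP3 (-0.32 to 0.03) in siSLC25A1 against siACLY, BCL3 (-0.16 to 0.05) and NFKBIE (-0.09 to 0.06) in siSLC25A1 against siACO1, and REL in siACLY against siACO1 (-0.10 to 0.26) also crossed 0, and the cause was not tested. RELA in siSLC25A1 against siACLY was called without siACO1 replicate 3 (0.11). REL in siSLC25A1 against siACO1 was not called under 10 alternatives, 7 of which left out 1 library.

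The replicate numbers were not taken to pair the libraries. Of 18 pairs with the same number in different groups, 5 had deviations that correlated above 0.1 (range -0.11 to 0.24), and 6 of 12 libraries correlated best with a library of their own number. With the replicate block the members called were 3 in siSLC25A1 and 7 in siACO1 against siControl, as without it, and over all genes 3270 and 6093 were called. TNFAIP3, at 13 to 61 reads per library, is the member whose precision depth limits most.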
